A study of Mus musculus with 6 samples.

Results

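Processed pseudogenes are retired copies of genes that arose when a messenger RNA was reverse transcribed and inserted elsewhere in the genome. The sites described here were the autosomal cytosines that lay inside a GENCODE M21 gene record of type processed pseudogene and over 1 kb from every transcription start of a protein-coding gene. Of 890041 sites measured, 866851 were autosomal, 3443 of those lay in a processed pseudogene, and 153 of these were removed for lying within 1 kb of a protein-coding start. The remaining 3290 sites, 0.380% of the autosomal ones, belonged to 726 of the 8924 autosomal records of that type. All 3290 were CpGs in the reference sequence, and 10 of them lay in 2 overlapping records. A record held a median of 3 member sites and at most 38, and 240 records held 5 or more. The rule itself uses no methylation value.

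The libraries were made by reduced representation bisulfite sequencing (RRBS), which cuts DNA at CCGG and so samples mostly CpG-rich sequence. The DNA came from dentate gyrus, the part of the hippocampus in which neurons are born throughout life. All 6 mice were female C57BL/6JRj animals aged 4.5 months with no transgene or deletion named in the labels. The 3 STD mice had lived in standard cages and the 3 ENR mice in environmental enrichment, larger and more varied housing that stimulates the adult hippocampus, and each mouse gave 1 library. Values were percentages of methylated reads at each cytosine, called the methylation level here, and differences between them are in percentage points. The reads behind a value are unknown beyond a minimum of 10 set by the authors. The tissue holds several cell types, so a level between 0% and 100% may reflect cells or chromosome copies that differ, and these cannot be told apart. Transcripts were not measured in these libraries, so the label of the tissue was not checked against marker genes.

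As background, the inserted copy usually lacks the introns and the promoter of its parent gene, because neither is part of the messenger RNA. Such a copy brings along exonic CpGs that sit close to the start of the parent gene, where they belong to a CpG island kept free of methylation in most tissues. A methylated cytosine readily turns into thymine by deamination, so that methylated CpGs tend to be replaced over time by TpG or, read on the other strand, by CpA. Highly expressed genes, above all those of ribosomal proteins, have left many such copies.

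Sequences from 4 named pseudogenes are given with the matching coding sequence of the parent, to show what survives in a copy and where the measured CpGs lie. They were read from GRCm38 (mm10) in the direction of the gene. Capitals mark measured CpGs in the pseudogenes and every CpG in the parents. The first pair is Psmb5-ps at chr11:102659740-102659859, minus strand, and Psmb5, which encodes a catalytic subunit of the proteasome. The second is Tpt1-ps3 at chr6:99878130-99878249, minus strand, and Tpt1, the gene of a translationally controlled protein. The third is Cdv3-ps at chr14:43122219-43122338, minus strand, and Cdv3. The fourth is Oaz1-ps at chr17:17345955-17346074, minus strand, and Oaz1, whose product antizyme restrains polyamine synthesis.
Psmb5-ps: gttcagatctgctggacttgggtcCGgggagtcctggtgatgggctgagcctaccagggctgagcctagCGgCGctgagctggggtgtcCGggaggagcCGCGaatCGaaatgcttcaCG
Psmb5: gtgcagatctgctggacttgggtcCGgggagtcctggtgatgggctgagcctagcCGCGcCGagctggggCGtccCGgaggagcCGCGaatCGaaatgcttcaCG
Tpt1-ps3: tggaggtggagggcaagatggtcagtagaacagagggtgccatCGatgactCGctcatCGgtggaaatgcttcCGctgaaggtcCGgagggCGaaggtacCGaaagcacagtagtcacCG
Tpt1: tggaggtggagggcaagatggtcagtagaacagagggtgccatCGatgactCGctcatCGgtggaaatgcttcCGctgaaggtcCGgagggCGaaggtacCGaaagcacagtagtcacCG
Cdv3-ps: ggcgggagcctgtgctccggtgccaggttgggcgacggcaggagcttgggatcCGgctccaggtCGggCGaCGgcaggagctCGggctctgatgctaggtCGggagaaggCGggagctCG
Cdv3: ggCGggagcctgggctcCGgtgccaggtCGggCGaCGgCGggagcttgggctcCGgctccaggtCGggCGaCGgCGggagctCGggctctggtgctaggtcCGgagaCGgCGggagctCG
Oaz1-ps: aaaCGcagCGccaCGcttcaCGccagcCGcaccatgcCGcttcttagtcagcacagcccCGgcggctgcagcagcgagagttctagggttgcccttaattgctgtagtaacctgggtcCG
Oaz1: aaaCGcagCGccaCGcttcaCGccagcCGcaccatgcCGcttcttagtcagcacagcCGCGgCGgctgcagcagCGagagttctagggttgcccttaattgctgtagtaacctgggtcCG
Psmb5-ps and its parent differed in 20 of 120 aligned columns, gaps included, and 6 of 10 parent CpGs were kept. The measured sites in this stretch had a mean level of 91.4%. The stretch of Tpt1-ps3 did not differ from its parent in any column, all 8 CpGs were kept, and the measured sites had a mean of 84.9%. In Cdv3-ps, 11 of 16 parent CpGs were kept, 3 had become TpG or CpA, and the mean was 36.7%. In Oaz1-ps, 10 of 11 parent CpGs were kept and the mean was 3.36%. The capitals in the copies therefore stand for CpGs of very different levels in sequence that is close to or the same as that of the parent.

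Processed pseudogene sites were highly methylated as a class. Their mean level in the STD libraries was 70.7%, 70.8% and 68.7%, and in the ENR libraries 70.7%, 71.1% and 65.6%. ENR replicate 3 was the lowest of the 6 here and over all autosomal sites, where it had 20.7% and the other libraries had 21.8% to 23.5%. The remaining 369772 autosomal sites over 1 kb from protein-coding starts had a mean of 46.5%, and the members were 23.1 percentage points higher (SD 0.584 over 6 libraries, range 22.5 to 24.0). The difference had the same sign in all 6 libraries (two-sided exact sign permutation test over libraries, p = 0.03125, adjusted p = 0.0325). This is the smallest p that 6 libraries can give, and it holds for every comparison within libraries below unless another p is given. The adjustment is over the 26 comparisons of this kind. Each compares the same sites in every library, so its p measures agreement between libraries and not the spread between sites or pseudogenes.

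Against the 164202 intergenic sites, which lie outside every gene record and had a mean of 52.5%, the members were 17.1 points higher (SD 0.494, n = 6 libraries). Both sets were then limited to sites over 10 kb from every annotated start, not counting the starts of processed pseudogenes. There the members had 71.2% and intergenic sites 60.7%, a difference of 10.5 points (SD 0.738, n = 6). The gap was smaller there, and members were still higher in all 6 libraries. Sites in unprocessed pseudogenes, which arise by duplication of DNA and keep introns, had 70.7%. Members were 1.11 points lower than those (SD 0.646, n = 6), a small gap that had the same sign in all 6 libraries. Sites in processed pseudogenes annotated as transcribed had 50.9%, and members were 18.7 points higher (SD 1.25, n = 6). Members within 1 to 2 kb of a protein-coding start, just inside the rule, had a mean of 74.4% over 59 sites, and the sites 500 to 1000 bp away, just outside it, had 20.5% over 62 sites.

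**Figure D1:**
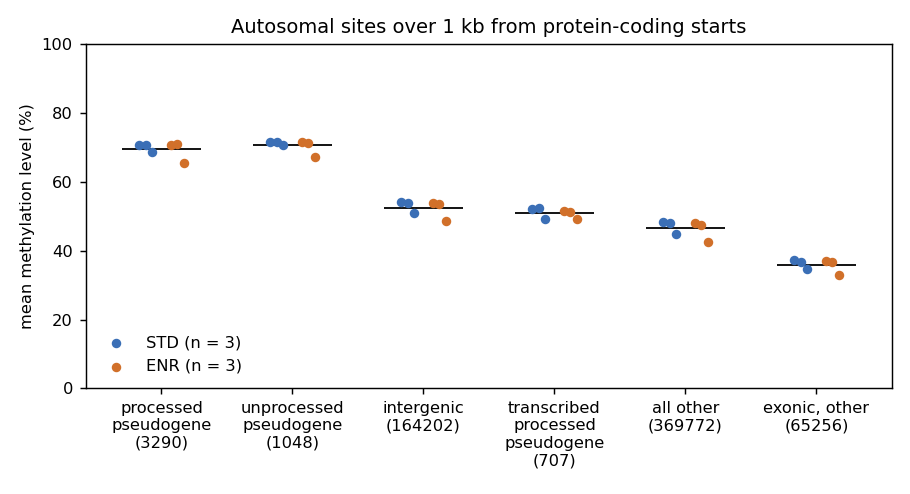
Mean methylation level (%) of 6 classes of autosomal sites over 1 kb from protein-coding starts, with the number of sites in parentheses; points are libraries (STD left, ENR right) and lines the mean of 6. Processed pseudogenes (65.6% to 71.1%) lie beside unprocessed pseudogenes and above intergenic, transcribed processed pseudogene, all other and exonic sites in every library.

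The mean covered a wide spread with most sites near the top. Of the members, 1976 (60.1%) had a mean level above 80%, 746 (22.7%) lay between 20% and 80%, and 568 (17.3%) were below 20%, with a median of 88.0%. Local composition went with this spread. The 1277 members in island-like sequence (within 100 bp on either side, a GC content of 50% or more and 0.6 or more of the CpGs that base composition predicts) had a mean of 53.0%, against 80.1% at the 2013 others, a difference of -27.1 points (SD 0.702, n = 6). Other sites over 1 kb from starts had 26.1% in island-like sequence and 53.2% elsewhere. Members were thus 26.9 points higher in both settings (SD 1.32 in island-like sequence and 0.883 elsewhere, n = 6 each).

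Position in the pseudogene also went with the level. Members in the first of 3 equal parts from the 5′ end had 65.7% over 1647 sites, those in the middle part 75.9% over 937 and those in the last part 70.6% over 716, with the 10 sites in 2 records counted in each. The first part was 4.91 points lower than the last (SD 0.642, n = 6), and 49.8% of its sites were island-like against 29.7% in the last part. The 227 members in sequence masked as repeats had 85.6%, against 68.4% at the rest, a difference of 17.2 points (SD 1.23, n = 6). The 971 members that lay inside another gene record as well had 64.03%, against 71.92% at those outside (difference -7.89 points, SD 0.669, n = 6).

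Sites of the same pseudogene were mostly of similar level. Across the 726 pseudogenes the median level was 89.5% (quartiles 71.5% and 94.8%). Above 80% lay 490 pseudogenes (67.5%), between 20% and 80% lay 179 (24.7%) and below 20% lay 57 (7.85%). In all 6 libraries, 334 stayed above 80% and 40 below 20%. Among the 240 with 5 or more sites, the SD between pseudogenes was 33.0 points and the median SD between sites of the same pseudogene was 6.72 points. Neighbouring sites share reads and are not independent measurements.

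**Figure D2:**
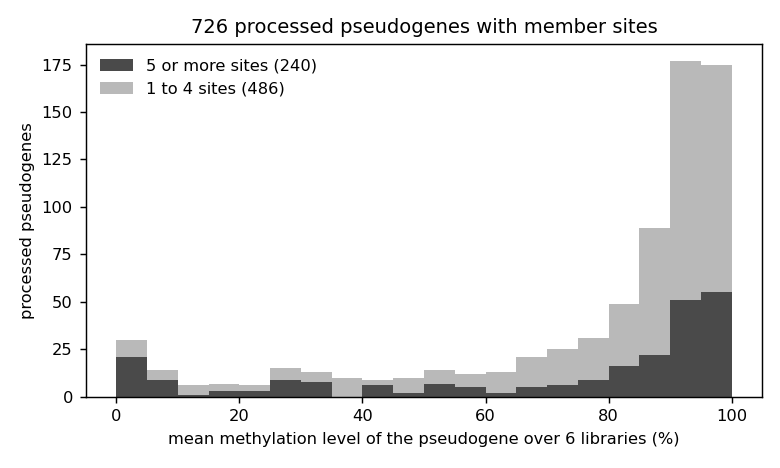
Mean methylation level (%) over 6 libraries of each of 726 processed pseudogenes, in bins of 5 points; dark bars are pseudogenes with 5 or more sites, light bars those with 1 to 4. Most lie above 80% (490) and a smaller group lies below 20% (57).

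The ends of this distribution were named by rule, among pseudogenes with 5 or more sites. At the top, Gm18821 (5 sites, best match to Srsf7, a splicing factor gene) had 99.2%, 99.8% and 100% in STD and 98.2%, 100% and 100% in ENR. Gm6457, Gm11380, 1700049L16Rik and Gm5263 had means from 98.3% to 98.9%. All 5 were close to full methylation in every library, with 94.4% as the lowest library value. At the bottom, Gm48398 (15 sites) had 0.588%, 2.14% and 3.41% in STD and 0% in all 3 ENR libraries. Gm11950 (23 sites, 94.99% identical to Irf2bpl) had a mean of 1.67%, Gm5814 (15 sites, 98.7% identical to Mrfap1) 2.28%, Gm17330 (8 sites) 1.58% and Gm5819 (5 sites) 1.68%. The 3 pseudogenes with most sites were also low or intermediate. Mospd4 (38 sites, best match to Vapa, a membrane contact protein gene, at 74.4% identity) had 6.39%, Gm13142 (37 sites) 6.87% and Gm12818 (36 sites, 97.3% identical to Minpp1) 26.0%.

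Some low pseudogenes lay together. On chromosome 12 (from 18227160 to 24493656) and on chromosome 4 (from 145455633 to 147746561), 28 records with 297 sites had a mean of 31.2%, and 11 of them were below 20%. These intervals were picked after their values were seen. Gm48398, the lowest pseudogene of all with 5 or more sites, is shown whole (chr12:18610384-18610600, plus strand, measured CpGs in capitals) because its density of CpGs stands out.
Gm48398: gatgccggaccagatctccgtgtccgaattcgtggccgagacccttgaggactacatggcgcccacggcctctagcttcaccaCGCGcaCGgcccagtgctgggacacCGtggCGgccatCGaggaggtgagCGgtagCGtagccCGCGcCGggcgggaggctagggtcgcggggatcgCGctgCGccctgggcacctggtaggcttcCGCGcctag
It held 26 CpGs in 217 bp, an observed to expected ratio of 0.980, and the 76 bp around its sites matched up to 24 places in the genome at 95% identity or more. With the members of these 2 intervals left out and the other far sites kept, the excess was 26.9 points instead of 23.1, a rise that the choice of low intervals fixes.

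Near-identical sequence elsewhere was found for many members. For 1591 members (48.4%), the surrounding 76 bp had another place in the genome at 95% identity or more. Their mean was 68.1%, against 70.9% at the 1699 members with a single place. The alignment program used by the authors keeps only reads that fit 1 place best, and how reads of near-identical copies were shared out was not tested. With members of a single place alone, the excess over other far sites was 24.5 points.

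The surroundings of each pseudogene were compared next, using sites within 2 kb outside the record. In the 264 pseudogenes with such sites, the body had a mean of 71.4% and the flank 65.0%. The body was 6.41 points higher (SD 1.49, n = 6 libraries, range 4.43 to 8.99), in every library. The median difference was only 0.871 points, and the body was higher in 151 of the 264. It was over 20 points higher in 43 and over 20 points lower in 17. Bodies and flanks lay within 10 points of each other in 152 of the 264. Of the 34 bodies below 20%, 28 had a flank below 20%, and of the 159 bodies above 80%, 117 had a flank above 80%. Of the 71 bodies between 20% and 80%, 41 had a flank in the same class, 12 had one below 20% and 18 one above 80%, and 20 lay within 10 points of the flank. Spearman's rho between body and flank was 0.671 across these 264 pseudogenes, whose bodies and flanks were measured in the same libraries.

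The comparison with parent genes asked whether the copy carries the level of the gene it came from. The symbol named a protein-coding parent for 61 pseudogenes (symbols ending in -ps), and 58 of them had an autosomal parent with sites within 1 kb of its starts, called the parent promoter here. The pseudogenes had a mean of 78.6% and the promoters of their 45 parents 7.70%. The difference was 70.9 points (SD 2.68, n = 6 libraries, range 66.7 to 73.4). Members lay over 1 kb from protein-coding starts by rule, and promoter sites within 1 kb of one. Copy and promoter thus differ in this distance by construction. The mean was higher in the pseudogene in all 58 pairs, and in 53 it was higher in each of the 6 libraries. Promoters were below 10% in 48 pairs, with a median of 2.12%. Pseudogenes were above 80% in 42 pairs, between 20% and 80% in 13 and below 20% in 3. The 2 pairs with an X-linked parent were kept apart, since 1 X chromosome is inactive in females, and had 63.6% against 26.7%.

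Individual pairs, the 8 with most member sites, showed how far the copies differed. Psmb5-ps had 88.0%, 87.2% and 83.1% in STD and 80.4%, 91.4% and 86.2% in ENR. The Psmb5 promoter had 3.61% to 10.3% over 43 sites, so the ranges lay far apart. Tpt1-ps3 had a mean of 88.3% ± 6.70 (SD, n = 6) and the Tpt1 promoter 1.42% ± 0.347. Wsb2-ps, a copy of a ubiquitin ligase adaptor gene, had 84.7% ± 5.85 against 4.46% ± 1.12 at the promoter. Intermediate copies were Gmfg-ps (67.6%), Npm3-ps1 (59.9%), Cdv3-ps (43.8%) and Itpa-ps1 (22.6%), and each exceeded the promoter of its parent in all 6 libraries. Oaz1-ps was low, with 8.36%, 13.5% and 8.31% in STD and 5.03%, 9.53% and 9.49% in ENR. The Oaz1 promoter had 5.32% to 7.88%, and the pseudogene was higher in 5 of 6 libraries by a mean of 2.44 points (SD 3.59). The other copies below 20% were Rpl23a-ps3 (3.97%) and Rps19-ps10 (1.45%), each with 2 sites. At the other end, the promoter of Zfp42, a pluripotency marker gene, was itself at 83.3%, beside 87.0% in Zfp42-ps1.

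Matching by sequence in place of the symbol, added after seeing the data, gave many more pairs. The best transcript match covered at least 50% of the pseudogene for 636 records and named the same gene for 57 of 60 parents given by symbol. Over 579 pairs with 373 parents, pseudogenes had 76.6% and promoters 5.08%, a difference of 71.5 points (SD 2.31, n = 6). In 527 pairs the pseudogene was higher in all 6 libraries. For the 45 pseudogenes below 20%, the median of the parent promoters was 1.70%, close to that of all 579 (1.63%).

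A promoter also differs from a copied exon in position, so CpGs that align between the copy and the parent transcript were compared directly. Of 2701 member CpGs in aligned records, 1944 had a CpG at the same place in the parent, and 573 of these, in 190 pseudogenes, were measured at an autosomal parent as well. The parent CpG lay within 1 kb of a start of its gene for 445 of them. There, the pseudogene had a mean of 61.8% and the parent 12.6%, a difference of 49.3 points (SD 1.73, n = 6 libraries). The pseudogene CpG was higher in all 6 libraries at 303 of the 445 and lower in all 6 at 18. Where the parent CpG lay further in (128 CpGs), the pseudogene had 73.8% and the parent 72.0%, a difference of 1.83 points (SD 0.540, n = 6). At those, 88 of 128 differed by at most 10 points, and both copies were above 80% at 74. The gap between copy and parent was thus many times larger for CpGs near a start of the parent than for CpGs further in, although the 2 groups come from different pseudogenes for the most part.

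**Figure D3:**
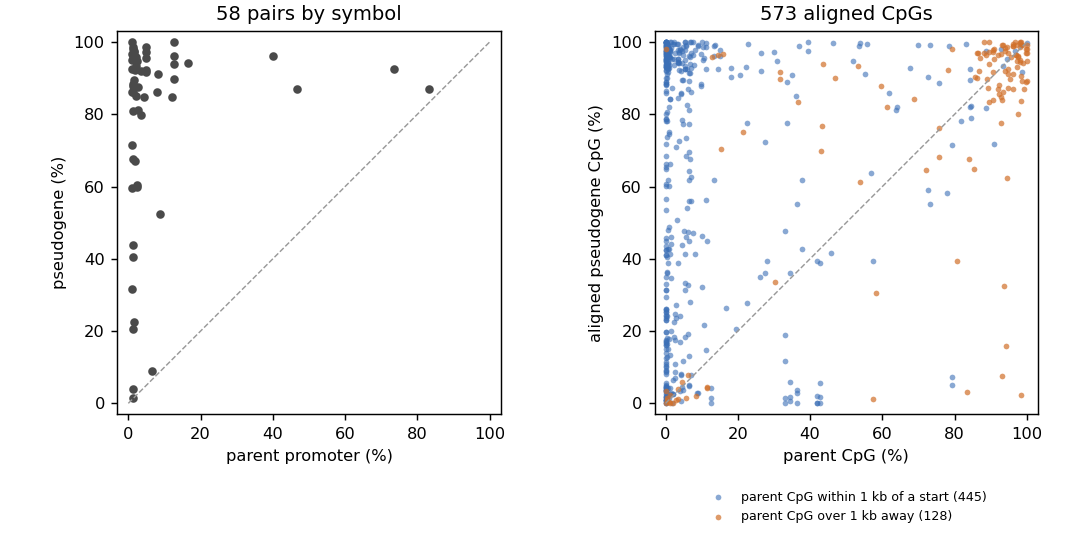
Left, mean level (%) of the pseudogene against that of the parent promoter in 58 pairs named by symbol; right, level (%) of 573 pseudogene CpGs against the aligned parent CpG, coloured by distance of the parent CpG from a start of its gene. Points are means of 6 libraries and the dashed line marks equal levels. CpGs near a parent start (blue, 445) gather at the left edge, with 12.6% in the parent on average, and those further in (orange, 128) gather in the top right corner.

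Single examples show how copies and parents compared. Rpl12-ps1, a copy of a large-subunit ribosomal protein gene, had 97.4% at 6 CpGs that were at 1.45% in Rpl12, all within 346 bp of a start. Gm11950 was low at 15 CpGs (2.14%) that were also low in Irf2bpl (2.76%), although these lay 2481 to 2817 bp from the starts. The pseudogene mean was below that of the parent in 34 of 190 pseudogenes, in 11 of them by over 10 points. Gm18755, which matched the vomeronasal receptor gene Vmn2r86, had 8.66% at 3 CpGs that were at 95.1% in the parent. Gm48398, Gm17330 and Gm48667 had 0.348%, 1.81% and 4.91% at CpGs where Gm21863, their best match, had 33.5% to 46.9%. Gm49379, the fourth copy with this best match and measured aligned CpGs, had 48.1% against 44.6%.

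The sequences of the copies were then set beside their levels. In 636 aligned pseudogenes, 57.1% of 17019 parent CpGs were kept as CpG, 14.4% were TpG, 13.3% were CpA and 15.2% were something else or a gap. Pseudogenes below 20% had kept 69.4% of parent CpGs, and 17.5% had become TpG or CpA. Those between 20% and 80% had kept 55.0% with 26.7% changed to TpG or CpA, and those above 80% had kept 56.5% with 29.2% changed. The median identity to the parent was similar, at 93.5%, 93.0% and 92.7%. The median CpG ratio of the records was 0.568 below 20% and 0.380 in both higher classes, and that of the aligned parent sequence was 0.574 below 20% and 0.480 in the others. The lowest class thus also came from parents richer in CpGs. The 87 pseudogenes with a ratio of 0.6 or more had a mean of 58.6%, against 79.2% in the other 639 (difference -20.6 points, SD 0.599, n = 6 libraries). Copies that reached the first 100 bases of the parent transcript (120) had 77.4%, and the 516 others had 76.5%. That difference was 0.905 points (SD 0.674) with 5 of 6 libraries positive and exact p = 0.0625, so that it did not pass the test.

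**Figure D4:**
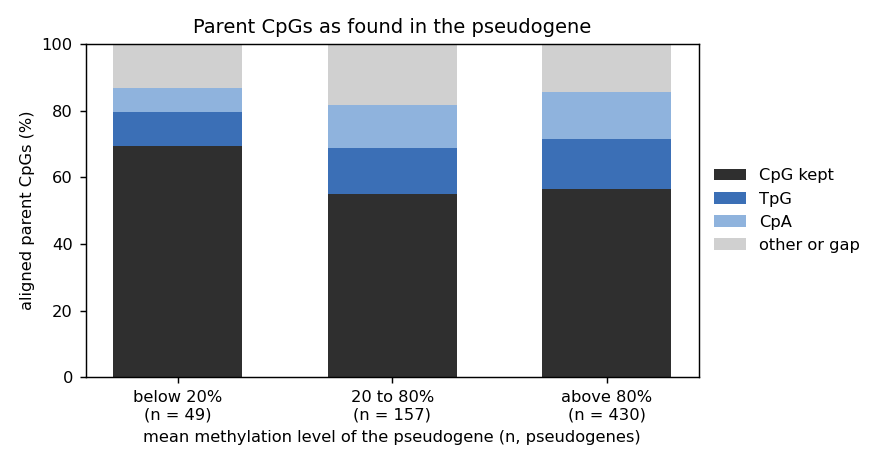
Share (%) of aligned parent CpGs that are found in the pseudogene as CpG, TpG, CpA or anything else, for pseudogenes with a mean level below 20% (49), from 20% to 80% (157) and above 80% (430). The lowest class kept 69.4% of parent CpGs and the others 55.0% and 56.5%.

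Families were formed by the start of the parent's symbol, so that a list can hold a gene of a related role, and their medians lay between 83.3% and 93.0%. The median over all 636 pseudogenes with a sequence match was 89.8%. Ribosomal protein genes had 140 copies with a median of 91.0%, of which 101 were above 80% and 4 below 20%. The 25 copies of HMG protein and histone genes had a median of 91.2%, the 14 of respiratory chain genes 90.3% and the 11 of glycolysis genes 89.9%. Copies of cytoskeleton genes (8, median 93.0%), chaperones (8, 89.2%), RNA-binding and splicing factors (6, 86.7%), genes with symbols starting in Eef or Eif (8, 85.7%) and ubiquitin or proteasome genes (8, 83.3%) completed the lists. The Eef and Eif genes are translation factors apart from Eef1akmt4, an enzyme that methylates one of them, which had 1 copy. Single parents with many copies differed in how far their copies spread. The 21 copies of Rpl21 lay between 63.5% and 99.96% with 19 above 80%, and the 11 of Rpl19 lay between 85.8% and 98.6%. The 10 copies of Cdv3 lay between 21.1% and 93.4%, with 4 above 80%. Wide ranges were also found for Actg1 (4 copies, 8.24% to 98.3%), Tada2b (4, 25.02% to 90.32%), Rpl27a (4, 32.7% to 95.9%), Rpl12 (6, 40.8% to 98.2%) and Gm21863 (6, 1.02% to 58.2%). The 5 matched to Asap2 lay between 2.92% and 34.1%. Copies of 1 parent share sequence and are not independent examples.

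The study first asked in these mice whether environmental enrichment changes methylation. The paper reports single CpGs that changed, by a test on reads that the deposited percentages do not allow. For processed pseudogenes as a class, no difference passed the test used here. The member mean was 70.1% ± 1.15 in STD and 69.1% ± 3.06 in ENR (SD, n = 3 each). The difference of -0.968 points was smaller than the spread between ENR mice (p = 0.8 by an exact two-sided permutation test, which cannot go below 0.1 here). Its sign rested on ENR replicate 3, without which it was 0.797 points. Over all autosomal sites the difference was -0.475 points (exact permutation p = 0.6).

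At single sites, 111 of 3290 members (3.37%) had group means over 25 points apart, a limit the study also set. The share was 1.88% of all autosomal sites and 3.77% of the other far sites. Such a difference needs a mean away from both ends of the scale. Among members with a mean of 12.5% to 87.5%, 111 of 1130 (9.82%) passed, against 9.18% of such autosomal sites, so the share was near the background. For differences over 25 points in which the groups also did not overlap, 47 members (4.16% of the 1130) passed, against 3.82%. By limma fitted to all sites that vary, 92 of 3028 members tested (3.04%) had an unadjusted p under 0.05. The share was 2.68% of autosomal sites and 3.29% of the other far sites. The smallest adjusted p was 0.852, so that 0 members passed after Benjamini-Hochberg adjustment. In simulated data, that fit over 615152 sites recovered 0 of 200 sites changed by 40 points and 0 of 200 changed by 90. With 10000 sites changed, it recovered 0 at 40 points and 9963 at 90. A count of 0 therefore says little about changes at a few sites or of moderate size. Of the 111 sites, 78 (70.3%) were lower in ENR, against 63.5% of all autosomal sites over 25 points and 64.2% of the other far sites. Without ENR replicate 3, 132 sites passed the limit and 44.7% of them were lower, so the leaning of the members to lower levels rested on that library.

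Named sites over 25 points without overlap illustrate the sizes. A site of Gm29767 (chromosome 13, position 117051124) had 100% in all 3 STD libraries and 50%, 75% and 41.7% in ENR. A site of CT030734.1 (chromosome 17, position 33468151) had 68.6%, 66.7% and 53.3% in STD and 100% in all 3 ENR libraries. In neither did the neighbours follow, since 0 of the 2 other sites of Gm29767 and 3 of the 8 others of CT030734.1 differed in the same direction. A site of Gm13034 (chromosome 4, position 146067756) had 25.5%, 27.8% and 26.7% in STD and 0% in all 3 ENR libraries, and 18 of its 22 neighbours were lower in ENR as well. The other sites named by the rule lay in Gm13036 (ENR minus STD -28.2 points), Gm9035 (31.3 points) and Gm45651 (30.9 points). In these, 1 of 1, 2 of 4 and 2 of 5 neighbours differed in the same direction. All named sites had an exact permutation p of 0.1 and a limma adjusted p of 0.852.

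Of whole pseudogenes, 717 were tested with limma among all autosomal gene records. An unadjusted p under 0.05 was found for 32 (4.46%), against 3.77% of all records. Of the 32, 21 were lower and 11 higher in ENR, and of the 852 among all records 556 were lower and 296 higher, a similar split. The groups did not overlap in 64 (8.93%), against 8.53%. Means were over 10 points apart in 93 pseudogenes (13.0%), against 5.13% of all records, with no matching for the number of sites or for room on the scale and no test of the difference. After adjustment over all records 0 pseudogenes passed (smallest adjusted p 0.99984). In simulated data, the same fit over 22579 gene records recovered 197 of 200 records raised by 40 points, with 7 false calls. Only records of low mean level were raised, so recovery at the high levels of most pseudogenes was not tested. The pseudogene median was -0.679 points, and that of all gene records -0.247.

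Among pseudogenes with 3 or more sites and no overlap, the 3 with the lowest limma p in each direction were named. Gm13034 (23 sites, 97.2% identical to Smarca5, which encodes a chromatin remodelling ATPase) had 17.1%, 18.6% and 22.1% in STD and 8.99%, 11.5% and 7.38% in ENR, a difference of -9.99 points. Obox6-ps1 (3 sites), a copy of an oocyte homeobox gene, had 58.9%, 50% and 56.4% in STD and 42.3%, 30.2% and 24.6% in ENR. Gm30652 (7 sites, matched to Rpl21) had 87.6% to 91.4% in STD and 78.8% to 81.9% in ENR. These 3 were lower in every ENR library than in any STD library.

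In the other direction, Gm7488 (6 sites), whose aligned part was 100% identical to Nudt21, a gene of messenger RNA 3′ end processing, had 23.2%, 16.7% and 25.6% in STD and 37.9%, 44.6% and 32.1% in ENR. Mospd4 had 4.58%, 3.57% and 5.64% in STD and 6.09%, 8.72% and 9.74% in ENR, a difference of 3.58 points. Gm1401 (3 sites) had 82.8% to 89.0% in STD and 91.7% to 100% in ENR. None of the 6 passed after adjustment (limma adjusted p 0.99984 each, exact permutation p 0.1 each). For Gm13034 all 23 sites, and for Gm7488 5 of 6, had another near-identical place, and the part of this in the values was not tested.

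**Figure D5:**
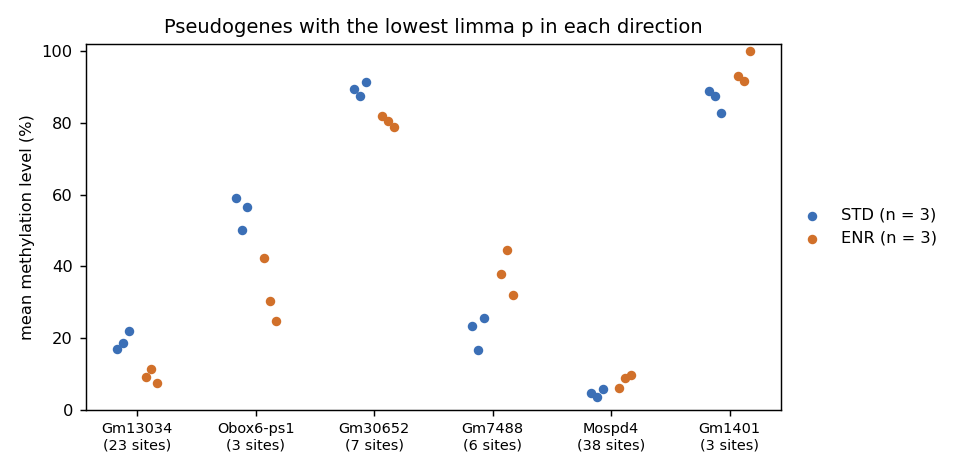
Mean methylation level (%) in each library of 6 pseudogenes, the 3 with the lowest limma p in each direction among those with 3 or more sites and no overlap of the groups; STD points left, ENR points right, no error bars. The groups are separate by selection, from 3.58 points apart in Mospd4 to 22.7 in Obox6-ps1.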

How the data were processed

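The values are percent methylation per cytosine, deposited by the authors as 1 table for 6 libraries, with 0 further columns of values left unused. According to the methods and the submitters' notes, the authors cut adapters with Trim Galore (0.4.0) and cutadapt (1.8.1), removed 2 further bases from reads with adapter, aligned reads to mm10 with Bismark (0.16.1) and used methylKit (1.5.2) to keep cytosines with at least 10 reads. Versions are those of the notes, from which the methods differ. Depth per site is unknown, so every site weighs the same and no interval is given.

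Sites were placed in GENCODE M21 gene records on GRCm38. Pseudogene means averaged their member sites. Parents came from symbols without the -ps ending, or from the best blastn (2.17.0) match to the longest protein-coding transcript of each gene, plus strand, covering at least 50% of the record. Aligned CpGs were taken from the same matches and averaged over strands. Groups were compared with limma (3.58.1, R 4.3.3, lmFit and eBayes with trend on percentages) over all sites or gene records that vary, with Benjamini-Hochberg adjustment, and with exact permutation tests of library means. The fit was tested on simulated data in which sites or records of low mean level were raised. Comparisons within libraries used an exact sign permutation test over the 6 libraries. Libraries were grouped by their titles.

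Named pseudogenes were the 8 with most sites among those with a parent by symbol, at least 3 sites and at least 3 promoter sites, the 5 lowest and 5 highest with at least 5 sites, the 3 with the lowest limma p in each direction with at least 3 sites and no overlap, and the 3 with most sites. Named sites were the 3 with the lowest limma p in each direction over 25 points with no overlap, at most 1 per pseudogene. Other genes were named after their values were seen. The members, lists and tests were chosen with earlier results of these data known.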

Additional observations from a re-analysis of the deposited data

How the results depend on the processing

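The depth of single sites is unknown, so part of the spread between libraries may be read sampling, and pseudogenes with 1 or 2 sites are the least precise. The difference between ENR and STD in the member mean reversed to 0.797 points without ENR replicate 3, and ranged from -1.95 to 0.797 when each library was left out in turn. Under the other alternatives run (pseudogene means, medians, averaged strands, other distances, sites outside other genes, windows with 1 place and, added after seeing the data, sites of 20% to 80%) it stayed negative, with no exact p under 0.5. The count of sites over 25 points (111) became 204 with a limit of 20 points and 8 with a limit of 40, and 132 to 180 when a library was left out (176 without ENR replicate 1 and 180 without ENR replicate 2). The count of pseudogenes with an unadjusted limma p under 0.05 (32) became 18 of 444 when only those with at least 3 sites were used. That is 4.05%, against 3.83% of all such gene records. With a library left out the count was 28 to 46, or 3.92% to 6.42%, against 3.32% to 5.13% of all records. The count was 40 with no variance trend (5.58% against 3.45%) and 34 on the arcsine scale (4.74% against 3.81%). The count of member sites with such a p (92) was 80 to 125 with a library left out. These were 2.73% to 4.23% of the members tested, against 2.90% to 3.54% of all sites. Without STD replicate 2 or STD replicate 3, the share of the members was the lower one. The count was 126 with no variance trend (4.16% against 3.91%) and 120 on the arcsine scale (3.96% against 3.67%).

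Alternatives were run for 4 of the differences within libraries (other far sites, flank, parent promoter and aligned CpGs), and these kept their sign. The others were not varied. Leaving out a library gave 23.0 to 23.3 points for members against other far sites, 5.90 to 6.81 for the flank, 70.4 to 71.8 for the parent promoter and 38.3 to 39.2 for aligned CpGs. With 5 libraries the exact sign test cannot go below p = 0.0625, so it no longer passed, by construction. Aligned CpGs differed by 38.7 points in all, by 42.8 with 1 value per pseudogene and by 55.7 at the 228 CpGs whose window had a single place. The parent by sequence match (71.5 points, and 70.5 where symbol and match were the same), the aligned CpGs, the sites over 10 kb from starts and the exclusion of the intervals on chromosomes 4 and 12 were added after seeing the data.

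Replicate numbers are shared by the groups but come from different mice. With the replicate block the member mean difference was -0.968 points (exact permutation p = 0.75). By limma, 90 member sites had an unadjusted p under 0.05 (2.97%, against 2.57% of all sites). So did 34 pseudogenes (4.74%, against 4.81% of all gene records). Deviations from the group means correlated at 0.0542, 0.0314 and 0.122 for libraries of the same number. For libraries of different numbers the correlations ran from -0.0804 to 0.0402. The labels do not say what libraries of the same number share, so the numbers were not taken to pair the mice. A shared batch was not tested.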
